A study of Homo sapiens with 40 samples.

Results

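NCIH1563 is an established human non-small cell lung cancer cell line that the row labels of the deposited results place among the lung adenocarcinoma lines. The results described here are the comparison of GSK3368712, which inhibits type I arginine methyltransferases, with its vehicle dimethyl sulfoxide (DMSO) in NCIH1563. They were taken as all genes with values whose row label names NCIH1563, which gave 13302 genes of the 58336 gene entries for the line, out of 135786 entries with values over the 10 lines of the series. The DMSO group held 2 libraries of NCIH1563 and the GSK3368712 group (written GSK712 in the labels) held 2 libraries of NCIH1563. All 4 libraries came from 1 line, and the labels give no other genetic change or agent for either group. Nothing in the labels tells if the pair of libraries in a group came from separate cultures, so the p-values measure the spread between these libraries, which may be technical. The row labels also carry the number 2000 and the sample titles end in D5, and neither is spelled out.

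Type I arginine methyltransferases place an asymmetric dimethyl mark on arginines of histones and of many RNA-binding proteins, using S-adenosylmethionine as the donor of methyl groups. PRMT1 does most of this work in cells, and CARM1, PRMT2, PRMT3, PRMT6 and PRMT8 are the other members inhibited as a class. Their substrates include the arginine and glycine rich proteins that package, splice and export messenger RNA, and histone marks that help to activate transcription. The title of the study names PRMT1 and the T cell response to tumours, so genes of antigen presentation, interferon signalling and immune ligands were among those followed.

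RNA was measured by sequencing of libraries enriched for messenger RNA. All values come from the authors' deposited table, which gives for each gene a log2 fold change, its standard error (SE), an adjusted p and a mean normalized count over the 4 libraries. A positive log2 fold change is taken to mean more RNA with GSK3368712. That reading rests on the order of the 2 treatments in the row labels, and nothing in the numbers tests it. A gene was listed only where it passed the authors' minimum of an FPKM above 1, per the labels. Values of single libraries were not analysed here. The level in each group was therefore computed from the mean count and the fold change, and is called the implied level. It carries no error of its own. The mean normalized counts of the listed genes sum to 100671496 in the authors' deposited table, and the stated depth is 100000000 paired reads per library. In bulk RNA, fewer cells with a transcript and less of that transcript per cell cannot be told apart.

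The labelled tissue of origin was compared with markers of cell types. Of 10 markers of lung adenocarcinoma, 5 were among the listed genes. The keratins of simple epithelia KRT7, KRT8 and KRT18 were at the 99.8th, 99.9th and 99.8th percentile of the line's mean normalized counts. KRT19 and MUC1 were at the 14.4th and 12.6th percentile. The lung lineage factor NKX2-1, its targets NAPSA and SFTPB, and the epithelial surface proteins CDH1 and EPCAM were not among the listed genes, so defining markers of the labelled type did not reach the listing. All 4 mesenchymal markers were listed, with VIM at the 99.4th, FN1 at the 99.9th, CDH2 at the 92.2nd and ZEB1 at the 22.2nd percentile. None of 6 squamous, 4 leukocyte or 5 neuroendocrine markers was listed, against 2 of 5 fibroblast markers (COL1A1 and PDGFRB) and 1 of 3 endothelial markers (PECAM1).

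The first comparison asked which genes differed between GSK3368712 and DMSO within NCIH1563. At an adjusted p of at most 0.05 in the authors' deposited table, 3105 of the 13302 genes rose and 3298 fell, which is 23.3% and 24.8% of the listed genes and 48.1% together. Of these, 939 rose and 1491 fell by at least 2-fold, and 182 rose and 229 fell by at least 4-fold. The median log2 fold change of all listed genes was −0.013, with an SD across genes of 0.924. The median SE of a log2 fold change was 0.216 in the authors' deposited table. The plot of change against level shows that called genes lay across the range of levels.

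The leading gene among those above the median level was DGCR11, a non-coding transcript that lies inside the gene DGCR2 on the same strand (chr22:19046162-19048375 on GRCh38). In the authors' deposited table DGCR11 rose by a log2 fold change of 5.41 (SE 0.246, adjusted p = 4.88e-103), from an implied 101.7 normalized counts to 4311. Because DGCR11 overlaps DGCR2 on its strand, how reads were shared between them is uncertain. CRYAB, a small heat shock protein that holds unfolded proteins in solution (chr11:111908565-111923722), rose by 4.26 (SE 0.224, adjusted p = 3.31e-77) in the authors' deposited table. Its implied level went from 700.2 to 13435 normalized counts, a 19.2-fold rise. NDRG1, a gene known for its response to low oxygen and metal depletion, rose by 3.84 (SE 0.197), from an implied 1182 to 16938 normalized counts, in the authors' deposited table. The level used for this ranking is the mean count over both groups. DGCR11, CRYAB, NDRG1 and, as given below, HDAC5 therefore passed the median of 2103 only through their levels with GSK3368712.

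Several other genes with the largest rises encode secreted or surface proteins. ADAM19, a membrane protease, rose by 3.28 and STC2, a secreted glycoprotein induced by cell stress, by 3.26 in the authors' deposited table. The same group in the authors' deposited table holds PI3, the elastase inhibitor elafin, at 3.13, TGM2, a protein cross-linking enzyme, at 2.46, SERPINE2, a protease inhibitor, at 2.43, GDF15, a stress-induced cytokine, at 2.41 and LAMB3, a laminin chain, at 2.37. Some of these transcripts were abundant: the implied level of SERPINE2 rose from 37551 to 202641 normalized counts in the authors' deposited table. KRT81, a hair keratin, rose by 2.86 to an implied 195878 normalized counts in the authors' deposited table, and reads of hair keratin genes can be shared with near copies. DENND1A, an exchange factor for Rab GTPases, rose by 2.98 (SE 0.181) in the authors' deposited table although its gene spans 550.5 kb. CHAC1, which degrades glutathione, stood at 2.66 in the authors' deposited table, and CD68, a lysosomal glycoprotein whose gene overlaps AC016876.2, at 2.51.

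The largest fall among genes above the median level was that of HDAC4, a class IIa histone deacetylase (chr2:239048168-239401654). Its implied level dropped from 9946 to 339.9 normalized counts, 29.3-fold lower, and the authors' deposited table gives a log2 fold change of −4.87 (SE 0.290, adjusted p = 3.35e-60). BDKRB2, the constitutive receptor for bradykinin (chr14:96204679-96244166), fell by 4.06 on the log2 scale (SE 0.196, adjusted p = 1.64e-91) in the authors' deposited table, from an implied 23114 to 1388 normalized counts. KIF26B, an atypical kinesin, fell by 3.53, and RPS6KA2, a ribosomal S6 kinase downstream of ERK, by 2.93 in the authors' deposited table. EGFR, the epidermal growth factor receptor (chr7:55019021-55211628), fell by 2.65 (SE 0.283, adjusted p = 5.49e-19), from an implied 9050 to 1442 normalized counts in the authors' deposited table.

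The other genes with the largest falls encode channels, receptors, matrix proteins and enzymes. In the authors' deposited table the calcium channel PKD2 stood at −2.86, the opsin OPN3 at −2.84 and the angiomotin AMOT at −2.74. OPN3 shares its strand and part of its position with CHML, so its reads cannot be assigned with certainty. The heparan sulfate sulfotransferase HS6ST3 stood at −2.59 and the glypican GPC6 at −2.47 in the authors' deposited table, and these genes span 748.7 and 1180.6 kb. METTL7A, a membrane methyltransferase, was at −2.54, HERC1, a giant ubiquitin ligase, at −2.53, COL4A5, a basement membrane collagen, at −2.53, IGFBP5, a binding protein of insulin-like growth factors, at −2.37 and MTR, methionine synthase, at −2.35 in the authors' deposited table.

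The targeted enzymes changed little in comparison. All 5 listed type I enzymes passed the authors' test, as did 48.1% of all listed genes, with changes of at most about 2-fold in these enzymes. CARM1 rose by 0.98 (SE 0.172), PRMT2 by 0.69 and PRMT1 by 0.52 (SE 0.176, adjusted p = 0.00843) in the authors' deposited table. PRMT3 fell by 1.02 (SE 0.214) and PRMT6 by 0.56 in the authors' deposited table. The compound blocks the enzymes rather than their RNA, so these values do not check the labels. Of 9 other listed genes of arginine methylation, 3 rose and 1 fell, 44.4% together, near the 48.1% of all listed genes. They were AHCY, which clears the product of methyl transfer, at 0.69, COPRS at 0.70, PRMT5, the main symmetric methyltransferase, at 0.42 and PRMT9 at −1.28 in the authors' deposited table. MTAP, a gene of methylthioadenosine salvage whose loss is used to sort tumours by their need for arginine methylation, was not among the 13302 listed genes.

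Class IIa histone deacetylases are signal-responsive repressors that hold MEF2 transcription factors inactive. Of 6 listed genes of this group 3 rose and 1 fell, 66.7% together against 48.1% of all listed genes. HDAC4 and HDAC5 moved in opposite directions. HDAC5 (chr17:44076746-44123702) rose by 3.57 (SE 0.246, adjusted p = 7.25e-45), from an implied 328.1 to 3891 normalized counts, in the authors' deposited table. HDAC4, described above, fell 29.3-fold in the same cells. HDAC7 rose by 1.02 and MEF2B, which shares transcripts with BORCS8-MEF2B, by 1.83 (SE 0.454) in the authors' deposited table. MEF2A at −0.50 and MEF2D at 0.20 did not pass the test of the authors' deposited table. Of 7 other histone deacetylases 2 rose, HDAC1 at 0.55 and HDAC10 at 0.80, and 1 fell, HDAC8 at −0.55 in the authors' deposited table. Together they are 42.9% of the 7, no more than the 48.1% of all listed genes.

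Gene groups were compared by their counts and medians beside those of all listed genes, without a test of the group as a whole. Of all listed genes 23.3% rose and 24.8% fell, with a median of −0.013, and the counts below stand beside these shares. A gene near the authors' minimum could be listed through its level in 1 treatment group and then had to differ, so counts and medians describe the listed members alone. The plot of members of gene groups gives each member's value. Among small heat shock proteins, 3 of 4 listed members rose, with HSPB1 at 1.49 and HSPB8 at 1.02 beside CRYAB in the authors' deposited table. The chaperones driven by HSF1, cytosolic and mitochondrial, did not share this: 1 of 14 rose and 3 fell. Their median was 0.03 (−0.04 with a trend on gene length and GC content removed), and the lowest member was the mitochondrial chaperonin HSPD1 at −1.035. Chaperones and sensors of the unfolded protein response had 2 of 18 higher and 6 lower, among them HSP90B1, the chaperone GRP94, at −0.74 and SEL1L, of the degradation complex, at −0.60 in the authors' deposited table.

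**Figure D1:**
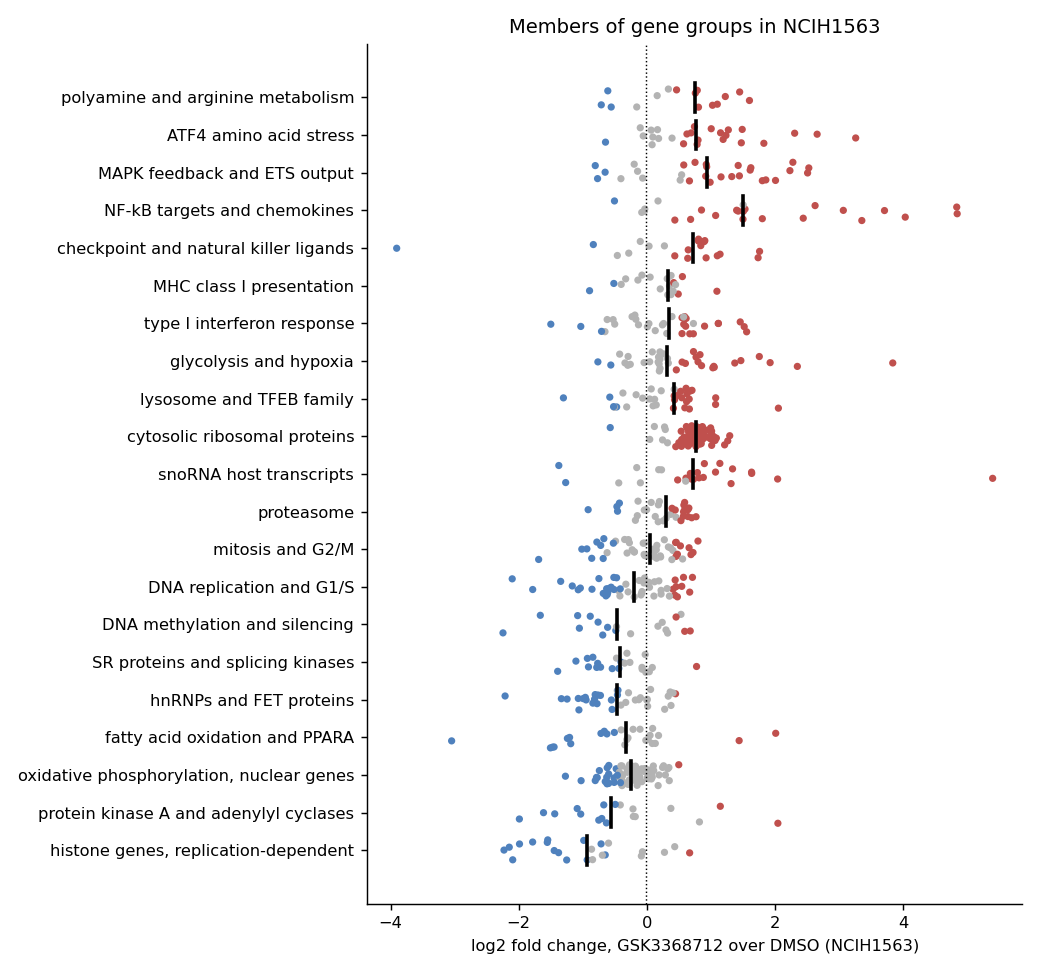
Each point is 1 gene of the named group in NCIH1563, and the horizontal axis is its log2 fold change, GSK3368712 over DMSO. Red points rose and blue points fell at an adjusted p of at most 0.05, grey points did not pass, and the black bar is the median of the listed members, which ran from −0.93 for replication-dependent histones to 1.503 for NF-kB targets.

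Genes of the amino acid stress response controlled by ATF4 were mostly higher. Of 26 listed members 17 rose and 1 fell, against 23.3% and 24.8% of all listed genes, and their median log2 fold change was 0.77. STC2 rose from an implied 2619 to 25127 normalized counts and CHAC1 from 875.2 to 5531 in the authors' deposited table. NUPR1, a stress-induced chromatin protein, stood at 2.31, TRIB3, a pseudokinase that restrains ATF4, at 1.83, PHGDH, the first enzyme of serine synthesis, at 1.49, CBS at 1.48 and asparagine synthetase (ASNS) at 1.27 in the authors' deposited table. ATF4 itself rose by 1.24 (SE 0.165) in the authors' deposited table. The member that fell was SLC7A5, the large neutral amino acid transporter, at −0.65 in the authors' deposited table.

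Among targets of NF-kB and the chemokines and cytokines followed with them, 24 of 34 genes were listed, of which 18 rose and 1 fell, with a median of 1.503. Over the 6 members listed in all 10 lines the median in NCIH1563 was 0.32. Several members, which may have been listed through their level with GSK3368712, started from low levels. CXCL8, the neutrophil chemokine interleukin 8, rose by 4.85 (SE 0.417) from an implied 21.8 to 627 normalized counts in the authors' deposited table. IL6 rose by 3.71 from an implied 25.2 to 330.5 and the acute phase protein SAA1 by 4.04 from an implied 85 to 1396 normalized counts in the authors' deposited table. IL11, a cytokine of the IL6 family, rose by 2.63, and IER3, an immediate early gene, by 1.80 from an implied 7943 to 27737 normalized counts in the authors' deposited table.

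Promoters are shown for 4 members of these groups that rose, as examples of a short match to the element that the named factor is known to bind. The sequences are from RefSeq on GRCh38.p14 and cover the 250 bases before the transcription start, 5′ to 3′ on the gene's strand, at chr15:40953221-40953470 for CHAC1, chr7:97872409-97872658 for ASNS, chr7:22726950-22727199 for IL6 and chr4:73740319-73740568 for CXCL8. Capitals mark the match, which is to TGATGNAA (ATF4 with C/EBP) in CHAC1 and ASNS, to GGGAN followed by TTTCC (NF-kB) in IL6 and to TGANTCA (AP-1) in CXCL8.
CHAC1: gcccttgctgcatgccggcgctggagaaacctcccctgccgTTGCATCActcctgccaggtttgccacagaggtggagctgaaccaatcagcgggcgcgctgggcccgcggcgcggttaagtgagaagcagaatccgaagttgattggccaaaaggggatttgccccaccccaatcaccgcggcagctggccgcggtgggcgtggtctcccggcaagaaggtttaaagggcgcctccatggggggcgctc
ASNS: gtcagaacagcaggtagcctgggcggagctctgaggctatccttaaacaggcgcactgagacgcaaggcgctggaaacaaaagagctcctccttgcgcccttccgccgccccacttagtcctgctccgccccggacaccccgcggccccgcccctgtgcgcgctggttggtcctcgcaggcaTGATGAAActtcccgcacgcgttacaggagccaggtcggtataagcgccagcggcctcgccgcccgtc
IL6: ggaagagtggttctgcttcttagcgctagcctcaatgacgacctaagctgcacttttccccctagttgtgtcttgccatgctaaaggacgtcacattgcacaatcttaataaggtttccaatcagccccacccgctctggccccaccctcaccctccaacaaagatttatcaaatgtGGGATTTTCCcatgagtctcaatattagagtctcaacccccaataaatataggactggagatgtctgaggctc
CXCL8: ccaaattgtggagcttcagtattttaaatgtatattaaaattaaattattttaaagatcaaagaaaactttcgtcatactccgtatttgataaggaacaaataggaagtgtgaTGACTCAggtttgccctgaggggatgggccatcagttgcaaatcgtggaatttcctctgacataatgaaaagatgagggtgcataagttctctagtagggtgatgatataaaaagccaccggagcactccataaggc
The matches start 209, 68, 73 and 137 bases before the start of CHAC1, ASNS, IL6 and CXCL8, and the match in CHAC1 is in the reverse orientation. Both strands of 27305 RefSeq promoters were searched, each 300 bases long with 250 before and 50 after the start. The letters TGATGNAA were in 3.67% of all promoters and in 3 of the 14 higher ATF4 list members with a promoter (21.4%), against 5 of 22 listed members (22.7%). The NF-kB letters were in 0.58% of all promoters, in 3 of 10 higher NF-kB list members (30%) and in 6 of 15 listed members with a promoter (40%). TGANTCA was in 7.76% of all promoters, in 4 of the 10 higher NF-kB list members (40%) and in 4 of the 15 listed (26.7%). In the MAPK list given below it was in 1 of 11 higher members (9.09%) and 1 of 20 listed (5%). In the ATF4 list it was in 1 of 14 higher members (7.14%) and 3 of 22 listed (13.6%). The ATF4 and NF-kB letters were no more frequent in the higher members than in all listed members. A match describes the letters of the sequence, and the data hold no measurement of binding.

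Genes that report the output of the MAPK pathway, a cascade from growth factor receptors to ERK and the ETS and AP-1 transcription factors, were also mostly higher. Of 29 listed members 20 rose and 3 fell, with a median of 0.94. The AP-1 subunits JUNB, JUN and FOSL1 rose by 2.24, 2.28 and 2.51 in the authors' deposited table, and the implied level of JUNB went from 3342 to 15731 normalized counts. The ETS factors ETV4 and ETV5 rose by 2.53 and 1.86 in the authors' deposited table. Among feedback inhibitors of the pathway, the ERK phosphatases DUSP6 and DUSP4 rose by 1.16 and 0.94 and the receptor inhibitor SPRY4 by 0.92, while SPRY2 at 0.52 did not pass (adjusted p = 0.0738 in the authors' deposited table).

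Receptor tyrosine kinases were divided. Of 23 listed members 11 rose and 8 fell. EPHA2 rose by 2.01 from an implied 3543 to 14271 normalized counts, PTK7 by 2.02 and EPHB2 by 1.58 in the authors' deposited table. Beside EGFR, MET, the hepatocyte growth factor receptor, fell by 1.52 from an implied 27470 to 9578 normalized counts, and PDGFRB fell by 1.18 in the authors' deposited table. Genes of adenylyl cyclase and protein kinase A signalling leaned lower, with 2 of 18 higher, 10 lower and a median of −0.56. The catalytic subunit gene PRKACB stood at −1.99 and the anchoring protein AKAP12 at −1.61, against ADCY7 at 2.05 in the authors' deposited table. With a trend on gene length and GC content removed (given with the results on gene length), the median of this group was −0.22.

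Interferon genes showed rises of modest size in part of the group. Of 34 listed genes of the type I interferon response 14 rose and 3 fell, with a median of 0.35, and of 13 genes of the interferon gamma response 8 rose and 3 fell, with a median of 0.70. IRF7, the regulator of type I interferon genes, rose by 1.52, OAS1, a sensor of double-stranded RNA, by 1.56, UBE2L6 by 1.12 and IRF1 by 1.40 in the authors' deposited table. DTX3L stood at −1.499, RNF213 at −1.36 and APOL3 at −1.67 in the authors' deposited table. HLA-DMA, which loads peptides on MHC class II, rose by 1.91 in the authors' deposited table.

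Of 19 listed genes of MHC class I presentation 4 rose and 2 fell, shares no higher than the 23.3% and 24.8% of all listed genes, with a median of 0.33 that became 0.11 once the trend on gene length and GC content was removed. Among those that rose were HLA-E, the ligand of the NKG2A receptor, at 1.09 (SE 0.181), HLA-B at 0.49 and HLA-C at 0.42 in the authors' deposited table. HLA-B and HLA-C are near copies and overlap in the annotation, so the division of reads between them is uncertain. The peptide trimmer ERAP1 fell by 0.89 and the class I transactivator NLRC5 by 0.52 in the authors' deposited table. B2M, the shared light chain, was at 0.05 in the authors' deposited table and did not pass.

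Among ligands seen by T cells and natural killer cells, 13 of 20 listed members rose and 2 fell, with a median of 0.73 and a mean of 0.37. The T cell costimulators TNFSF9 (4-1BB ligand) and CD70 rose by 1.76 and 1.74, the checkpoint protein VSIR by 1.10, CD276 (B7-H3) by 0.93 and PVR by 0.91 in the authors' deposited table. LGALS9, the galectin that binds TIM-3, fell by 3.91 (SE 0.400) from an implied 641.7 to 42.8 normalized counts in the authors' deposited table. CD274, which encodes PD-L1, was not among the listed genes. Of 18 genes of nucleic acid sensing 4 rose and 4 fell, close to the shares of all listed genes, with STING (TMEM173) at 1.97 and IKBKE at 1.71, against the RNA sensor kinase EIF2AK2 at −1.20 in the authors' deposited table. Beside these immune genes, the defining leukocyte markers PTPRC, CD3E, CD79A and CD14 were not listed. Of 16 genes of a wider leukocyte list 2 were listed, FCER1G at 3.58 from an implied 11.9 normalized counts and CSF1R at −0.55, in the authors' deposited table.

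Genes of DNA methylation and silencing leaned lower, with 3 of 19 listed members higher, 9 lower and a median of −0.47. MPHOSPH8, which reads methylated histone H3 in the HUSH silencing complex, fell by 2.25 and the de novo methyltransferase DNMT3A by 1.66 in the authors' deposited table. The maintenance enzyme DNMT1 fell by 0.69 and DNMT3B rose by 0.68 in the authors' deposited table. The median of this group was −0.19 with the trend on gene length and GC content removed. Of 23 Polycomb and trithorax genes 4 rose and 9 fell, among them the large methyltransferases KMT2A at −1.53 and KMT2C at −1.42 in the authors' deposited table.

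Growth genes did not move as 1 block. Of 46 genes of mitosis 9 rose and 9 fell, shares below those of all listed genes, with a median of 0.05 (0.20 with the trend on gene length and GC content removed) and a mean of −0.05. MKI67, the proliferation antigen, fell by 1.69 (SE 0.209) from an implied 17993 to 5580 normalized counts, the mitotic kinase gene AURKA fell by 0.86 and CDC20, an activator of the anaphase promoting complex, rose by 0.80 in the authors' deposited table. Of 49 genes of DNA replication 9 rose and 20 fell, with a median of −0.20 (−0.12 over members in the top 75% of genes by level). The checkpoint mediator CLSPN stood at −2.10, the repressor E2F8 at −1.78 and the initiation factor MCM10 at −1.34, while the helicase subunit MCM7 was at 0.67 and the licensing factor CDT1 at 0.71 in the authors' deposited table. Replication-dependent histones, whose transcripts normally lack a poly(A) tail, had 1 of 23 higher and 14 lower, with a median of −0.93. Homologous recombination and Fanconi genes had 2 of 29 higher and 9 lower, with a median of −0.24 that turned to 0.07 with the trend on gene length and GC content removed.

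Of 34 listed p53 targets 14 rose and 7 fell, with a median of 0.08 and a mean of 0.25. Beside GDF15, the AKT inhibitor PHLDA3 rose by 1.70 and CDKN1A, the cell cycle inhibitor p21, by 1.18 from an implied 21162 to 47882 normalized counts in the authors' deposited table. Of 17 members of the BCL2 family 10 rose and 3 fell, with a median of 0.55 (0.26 with the trend removed). Members of both signs of function rose: the protective BCL2L1 by 1.44 and the death-promoting BBC3 by 1.78, BMF by 1.03 and BAX by 0.99 in the authors' deposited table. The protective genes MCL1 and BCL2L2 fell by 0.81 and 1.14 in the authors' deposited table.

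Polyamines are made from arginine by way of ornithine, and their genes leaned higher, with 9 of 15 listed members up, 3 down and a median of 0.76. The rises covered synthesis and breakdown alike. Ornithine decarboxylase (ODC1) rose by 1.23 from an implied 19684 to 46044 normalized counts and spermidine synthase (SRM) by 1.03 in the authors' deposited table. Spermine oxidase (SMOX) rose by 1.60 and the acetyltransferase SAT1 by 1.45 in the authors' deposited table. The median of the group was 0.36 with the trend on gene length and GC content removed.

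Cytosolic ribosomal protein genes moved nearly as a block. Of 84 listed members 77 rose and 1 fell, with a median of 0.76 that was also 0.76 with the trend removed. RPLP0 rose by 1.29, RPL12 by 1.26 and RPL10 by 1.22 in the authors' deposited table, and the member that fell was RPL7L1, a ribosome-like protein of the nucleolus, at −0.57 in the same table. Many ribosomal protein genes have processed pseudogenes, and 61 of 183 listed processed pseudogenes rose while 8 fell, and how reads were shared between genes and copies is uncertain. Mitochondrial ribosomal proteins did not share the pattern, with 17 of 78 higher, near the 23.3% of all listed genes, 12 lower and a median of 0.07. Host transcripts of small nucleolar RNAs, many of which begin with the same pyrimidine tract as ribosomal protein transcripts, had 17 of 25 higher, 2 lower and a median of 0.73. SNHG8 rose by 2.04, SNHG5 and SNHG7 by 1.64 each and GAS5 by 1.34 in the authors' deposited table.

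RNA-binding proteins that carry arginine and glycine rich stretches leaned the other way. Of 35 listed hnRNP and FET genes 1 rose and 18 fell, with a median of −0.46. HNRNPA3 fell by 1.33, HNRNPA2B1 by 1.25 from an implied 66330 to 27985, and HNRNPU by 1.07 in the authors' deposited table, whereas HNRNPA1 was at 0.001 and did not pass. Of 22 SR proteins and splicing kinases 1 rose and 11 fell, with a median of −0.42 (−0.20 with the trend removed). SRRM1 stood at −1.39, SON at −1.11 and SRSF1 at −0.93, and the member that rose was the kinase CLK1 at 0.78 in the authors' deposited table. The nuclear RNA NEAT1 was at −0.05 with an SE of 0.667 in the authors' deposited table and did not pass.

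Of 26 genes of fatty acid oxidation and PPARA signalling 2 rose and 11 fell, with a median of −0.33. EHHADH, an enzyme of peroxisomal oxidation, fell by 3.05, and the carnitine transferase CPT2 stood at −1.505, ETFDH at −1.45 and HADH at −1.21 in the authors' deposited table. The lipid droplet coat gene PLIN2 rose by 2.01 from an implied 23726 to 95764 normalized counts in the authors' deposited table. Nuclear genes of oxidative phosphorylation had 1 of 74 higher, against 23.3% of all listed genes, and 19 lower, near the 24.8% of all, with a median of −0.24 and with SDHD at −1.27 and NDUFS1 at −1.03 in the authors' deposited table. Of 37 genes of glycolysis and hypoxia 17 rose and 2 fell, with a median of 0.32 and a mean of 0.56. The carbonic anhydrase CA9 stood at 2.35, ALDOC at 1.93, PFKFB4 at 1.76 and the peptide hormone ADM at 1.47 in the authors' deposited table.

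Lysosomal genes had 18 of 34 higher and 4 lower, with a median of 0.43 and a mean of 0.28. The protease CTSB rose by 2.06 from an implied 54633 to 227025 normalized counts and the cholesterol carrier NPC2 by 1.08, while the proton pump subunit ATP6V1A fell by 1.30 in the authors' deposited table. Of 34 autophagy genes 11 rose and 7 fell, against 23.3% and 24.8% of all listed genes. The receptor SQSTM1 stood at 1.32 and the long genes ATG2B and ULK2 at −1.82 and −1.47 in the authors' deposited table. Of 31 proteasome subunits 13 rose and 4 fell, with a median of 0.30. Targets of NRF2 had 8 of 30 higher and 7 lower, near the shares of all listed genes, with the ferritin chains FTH1 and FTL at 1.41 and 1.29 and the glutathione synthesis gene GCLC at −1.10 in the authors' deposited table.

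Genes of the mesenchymal state, which NCIH1563 expresses, had 12 of 27 higher and 2 lower, with a median of 0.27 (0.42 with the trend on gene length and GC content removed). CD44, the hyaluronan receptor, rose by 1.75, the fibronectin receptor chain ITGA5 by 1.69 and VIM by 1.35 from an implied 71031 to 181192 normalized counts in the authors' deposited table. The factor TWIST2 fell by 1.93 in the authors' deposited table. Some epithelial genes that were listed also moved. KRT7, KRT8 and KRT18 rose by 1.63, 1.27 and 1.37, the junction protein JUP by 2.12 and SPINT2 by 2.00 in the authors' deposited table. The tight junction gene CGN fell by 2.04 in the same table, and KRT19 at −0.225 did not pass. Of 14 junction genes 4 rose and 6 fell. The squamous list had 10 listed members, of which 4 rose and 1 fell, with none of the 6 defining squamous markers among them.

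Matrix genes were split at 10 of 32 higher and 11 lower. LAMA4 rose by 2.13 and COL1A1 by 2.01, whereas COL12A1 fell by 2.24 from an implied 293188 to 61849 normalized counts in the authors' deposited table. Of 12 integrins 7 rose and 2 fell, with ITGA3 at 2.08 from an implied 27756 to 117515 normalized counts in the authors' deposited table. Targets of YAP and TEAD, which respond to cell shape and adhesion, had 15 of 30 higher and 10 lower. ANKRD1 rose by 3.91, CTGF by 2.84 and CYR61 by 2.32, while PTPN14, a YAP inhibitor that is itself a target, fell by 2.00 in the authors' deposited table.

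Gene length moved with the direction of change. Over 11699 listed protein-coding genes, the log2 fold change in NCIH1563 had a Spearman correlation across genes of −0.32 with gene span (start to end in the annotation), −0.31 with the length of the longest transcript and 0.40 with GC content. Genes are not independent replicates, and these values are descriptions. Of 2144 genes that span up to 10 kb 40.3% rose and 10.8% fell, with a median of 0.33. Of 381 genes that span over 300 kb 9.45% rose and 51.4% fell, with a median of −0.58. The bins between lay in order, with medians of 0.16 at 10 to 30 kb, −0.11 at 30 to 100 kb and −0.40 at 100 to 300 kb. Transcript length gave a like order, from 0.33 for 1011 genes with transcripts up to 1.5 kb to −0.42 for 2238 genes with transcripts over 6 kb. Where both differed, 544 genes with transcripts up to 1.5 kb and spans up to 10 kb had a median of 0.43, and 209 genes with transcripts over 6 kb and spans over 300 kb had a median of −0.77.

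In the other 9 lines the Spearman correlation of change with span ran from −0.11 in LK2 to 0.25 in PC9. NCIH1563 had the lowest value for span and for transcript length and the highest for GC content among the 10 lines. For transcript length the other lines ran from −0.04 in LK2 to 0.25 in PC9. For GC content they ran from −0.22 in NCIH1975 to 0.29 in NCIH522, an adenocarcinoma line with a value near that of NCIH1563. PC9 and NCIH1975, both adenocarcinoma lines, had the opposite slope with span, at 0.25 and 0.17. What underlies the slope was not tested. A trend on span, transcript length and GC content, fitted after the pattern was seen, took 12.9% of the variance of the fold changes in NCIH1563. With it removed 2807 genes rose and 2392 fell, and 4236 genes were called in the same direction both ways, against 1 in the opposite direction. Of 988 long non-coding RNAs 119 rose, against 23.3% of all listed genes, and 251 fell, near the 24.8% of all. Their median was −0.39.

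**Figure D2:**
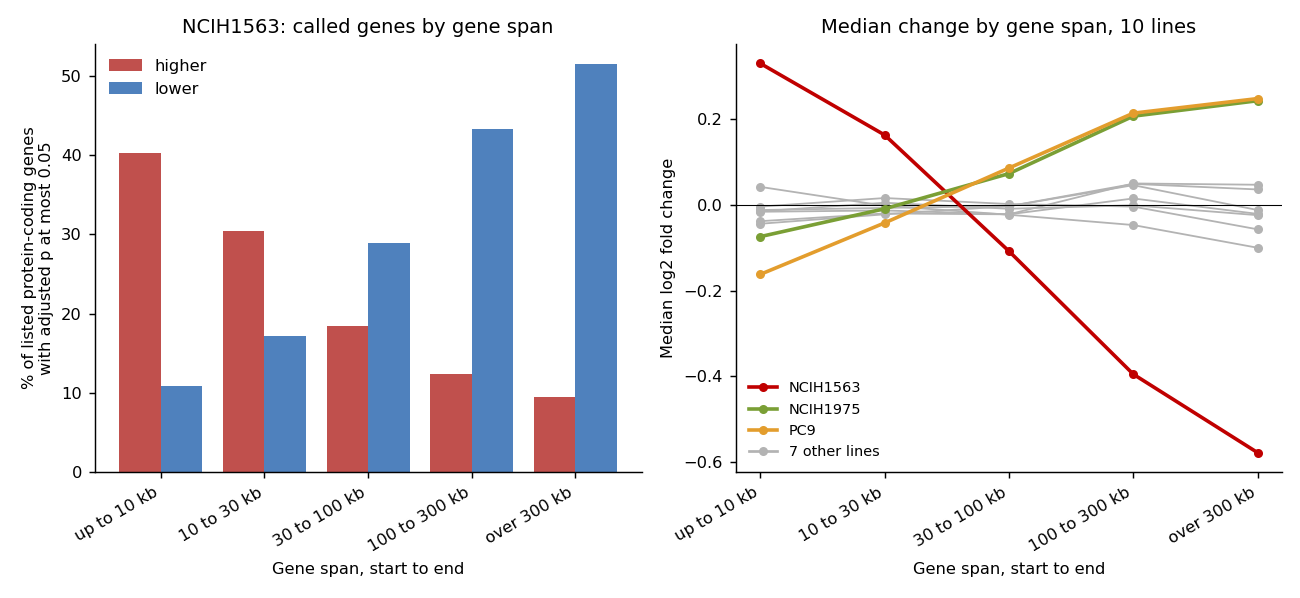
The left panel gives the percentage of listed protein-coding genes in NCIH1563 that rose (red) or fell (blue) at an adjusted p of at most 0.05, by the span of the gene in kb. The right panel gives the median log2 fold change in each span bin for the 10 lines, and shows NCIH1563 going from 0.33 to −0.58 while PC9 and NCIH1975 go upward and the 7 other lines stay near 0.

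The second comparison asked where the change in NCIH1563 lay apart from that in the other 9 lines. For 9339 genes with values in all 10 lines, limma compared the log2 fold change of NCIH1563 with the mean of the others, on the assumption that the lone line varies as they do. At an adjusted p of at most 0.05, 1272 genes (13.6%) lay above and 1205 (12.9%) below the other lines, 26.5% together. The fold changes of NCIH1563 were the widest of the 10 lines, with an SD of 0.924 against 0.439 to 0.715. With each line's fold changes divided by their SD, limma called 0 genes above and 0 below, with 1494 genes at an unadjusted p under 0.05 and a smallest adjusted p of 0.0684. The differences that follow are unscaled. The median SE was 0.216 in NCIH1563, against 0.108 to 0.130 in the squamous lines and 0.264 to 0.342 in the other adenocarcinoma lines of the authors' deposited table. Against the other 3 adenocarcinoma lines alone, limma called 307 above and 698 below.

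HDAC4 stood apart among the well expressed genes. Its log2 fold change of −4.87 in NCIH1563 compared with a range of −1.62 to 0.08 in the other lines of the authors' deposited table, a difference of −3.98 (SE 0.486, limma adjusted p = 0.00133). HDAC4 fell by the authors' test in 6 of the other 9 lines too. HDAC5 stood at 3.57 against 0.45 to 1.99, a difference of 2.57 (limma adjusted p = 0.00649). All 9 other lines had a positive value for HDAC5, so NCIH1563 lay at the end of a shared direction for both genes. OPN3 was negative in every line of the authors' deposited table, and its −2.84 in NCIH1563 lay within the range of the others, from −3.05 in LK2 to −1.06 in PC9.

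Of the 24 genes furthest above or below, 8 were in the top 75% of compared genes by level in NCIH1563. EEPD1, VDR, PHLDA2, FOSL1, ETV4 and ASPHD1 were not among these 8, and genes of low level may be listed through 1 treatment group. Besides HDAC5, the genes furthest above were as follows. EEPD1, an endonuclease-like protein of DNA repair, stood at 3.04 in NCIH1563 and between −1.15 and −0.06 in the other lines, a difference of 3.43 (SE 0.328, limma adjusted p = 0.000613). VDR, the vitamin D receptor, was at 3.74 against −0.003 to 1.06, a difference of 3.25 (limma adjusted p = 0.000624). PHLDA2 had a difference of 2.87, STC2 of 2.78, the AP-1 subunit FOSL1 of 2.65, ETV4 of 2.62, ASPHD1 of 2.54, the zinc finger gene ZNF268 of 2.52, the link protein HAPLN3 and the small MAF factor MAFF of 2.38 each. DGCR11 was positive in every line, from 2.34 to 4.17 outside NCIH1563 in the authors' deposited table, and its difference of 2.37 became −0.13 on the scaled fold changes.

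**Figure D3:**
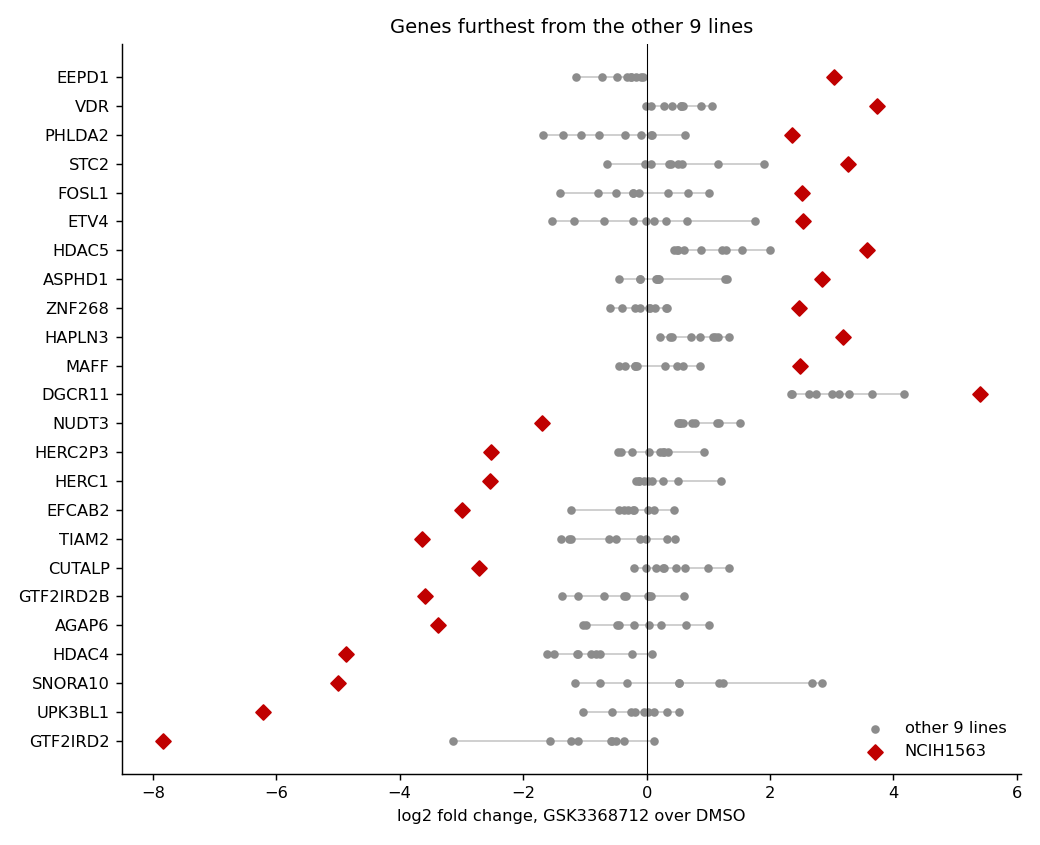
The horizontal axis is the log2 fold change, GSK3368712 over DMSO, of the 12 genes furthest above and the 12 furthest below the other lines by limma. The red diamond is NCIH1563 and each grey dot is 1 of the other 9 lines, joined by a line from lowest to highest, such as −1.62 to 0.08 for HDAC4.

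Of the 12 genes furthest below, several are parts of duplicated gene families, for which reads cannot be assigned with certainty. GTF2IRD2 had a difference of −6.84, GTF2IRD2B of −3.25, AGAP6 of −3.25, HERC2P3 of −2.64, CUTALP of −3.16 and UPK3BL1 of −6.09. UPK3BL1 had an SE of 2.11 in NCIH1563 in the authors' deposited table, and SNORA10, with a difference of −5.76, had a mean of 3.17 normalized counts there and did not pass the authors' test (adjusted p = 0.185). The other genes were TIAM2, an exchange factor for the GTPase RAC1, at a difference of −3.16, EFCAB2 at −2.75, HERC1 at −2.71 and NUDT3 at −2.53. TIAM2 shares its strand with SCAF8 and NUDT3 with the readthrough gene RPS10-NUDT3. NUDT3, a phosphohydrolase, fell by 1.70 in NCIH1563 and was positive in all other lines, from 0.50 to 1.52, in the authors' deposited table.

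The genes of the targeted enzymes were also among those that differed. CARM1 lay above the other lines by 0.97 (limma adjusted p = 0.0104) and PRMT2 by 0.56 (limma adjusted p = 0.0325), and PRMT3 lay below, at a difference of −0.68 (limma adjusted p = 0.0222). The difference of 0.47 for PRMT1 did not pass (limma adjusted p = 0.113). CTSB at 2.06 lay above a range of −0.11 to 0.63 (difference 1.88, limma adjusted p = 0.00133). MKI67 was lower than in the other lines by a difference of −1.61 (limma adjusted p = 0.0156), whereas the difference of 0.82 for CDKN1A did not pass (limma adjusted p = 0.175). HLA-E was positive in all 10 lines, and its difference of 0.57 did not pass (limma adjusted p = 0.131).

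Group medians over members listed in all 10 lines placed NCIH1563 at an end of the 10 lines for several groups. The 84 ribosomal protein genes had a median of 0.76 in NCIH1563 against −0.20 to 0.39 in the other lines, and 46 of them lay above the other lines by limma and none below. The 19 MAPK output genes had a median of 1.33 against −0.74 to 0.40, with 11 above by limma. The 35 hnRNP and FET genes had a median of −0.46 against −0.19 to 0.33, with 11 below and 1 above by limma, and the 22 splicing genes a median of −0.42 against −0.16 to 0.10, with 6 below. The 31 proteasome subunits were at 0.30 against −0.19 to 0.001, with 13 above by limma. These shares stand beside 13.6% above and 12.9% below for all 9339 genes, before scaling.

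**Figure D4:**
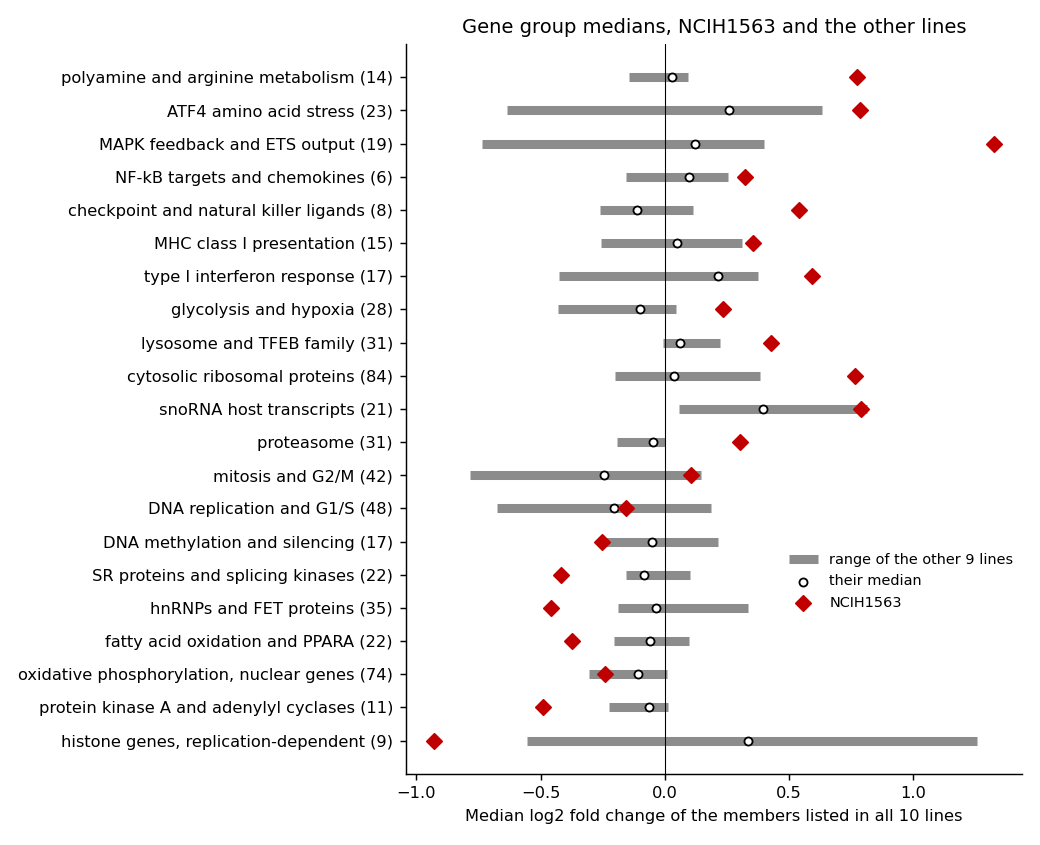
The horizontal axis is the median log2 fold change of the members listed in all 10 lines, with their number in parentheses. The red diamond is NCIH1563, the grey bar the range of the other 9 lines and the open circle their median. NCIH1563 lies outside the bar for MAPK output at 1.33 and for replication-dependent histones at −0.93, and inside it for mitosis and DNA replication.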

How the data were processed

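Messenger RNA libraries of NCIH1563 treated with DMSO or GSK3368712, 2 per group, were compared by the authors. The tools named in the submitters' processing notes are FastQC, Salmon 0.12.0 and DESeq2 (its version is not given in the sources used here), and the build is GRCh38. Per the labels, genes at an FPKM of 1 or less were removed in each comparison, and reads were paired and of 151 bases. The log2 fold changes and their standard errors were made by the authors with DESeq2 and deposited as such. The deposited adjusted p-value was computed by the authors over the genes listed for a line. The deposited test statistic is a score deposited by the authors, and dividing each log2 fold change by its error gave it back within 0.0407. The deposited mean normalized count is a signal averaged by the authors over the 4 libraries. A mark set by the authors matched the rule of adjusted p up to 0.05 and at least 2-fold change in 13300 of 13302 genes. The depth of single libraries was not analysed here, and counting intervals are therefore left out.

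Symbols came from the deposited table, where 904 listed genes have none, and positions, GC content and lengths from GENCODE 29, which matched 13288 gene IDs (99.9%). The implied level with DMSO was computed as 2 times the mean count divided by 1 plus the fold change, and the rest was given to GSK3368712. Calls within NCIH1563 use the authors' adjusted p at 0.05. Against the other 9 lines, limma 3.58.1 in R 4.3.3 compared 1 fold change per line over 9339 genes, with Benjamini-Hochberg adjustment. The fit was tried on simulated data in which NCIH1563 varied like the other lines, so the trial did not cover its wider fold changes. Genes named are the 15 with the largest rise and the 15 with the largest fall above the line's median level, up to 6 members per list with the smallest p, 12 genes per direction against the other lines, and genes followed throughout, such as PRMT1, HDAC4, EGFR and MKI67. Other members were named after their values were seen, and the results of a few genes that these rules take are left out of the text. The gene lists and members were chosen with earlier results of these data known. Alternatives were a recomputed adjustment, stricter thresholds, the top 75% of genes by level, centring, other sets of lines, scaling by each line's SD, other variance models and a mean for the median. Removal of a trend on gene span, transcript length and GC content was added after the data were seen. Promoters were taken from RefSeq (GRCh38.p14). Python 3.11.15 and matplotlib 3.10.9 were used for the rest.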

Additional observations from a re-analysis of the deposited data

Results flagged for a closer look

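Among the 10 lines, a value of NCIH1563 was picked out by its gap to the nearest line as a share of the whole range. It was picked where that share exceeded Dixon's 95% limit for 10 values. With lines that vary alike, chance passes this limit in about 1 of 20 groups, counting whichever line lies furthest. Chance puts 1 line named beforehand past it less often. The search also covered many groups that did not pass, single genes and measures of whole lines. The values are unscaled, and NCIH1563 had the widest fold changes, with an SD of 0.924 against 0.439 to 0.715 in the other lines. Medians over members listed in all 10 lines passed Dixon's limit for polyamine and arginine genes (0.773), ligands of T and natural killer cells (0.542), the BCL2 family (0.534), lysosomal genes (0.427), proteasome subunits (0.302) and lung epithelial genes (1.183, over 6 members that include KRT7, KRT8 and KRT18). They also met it for SR proteins and splicing kinases (−0.42), protein kinase A genes (−0.492) and Polycomb and trithorax genes (−0.137). Single log2 fold changes that stood apart in this way in the authors' deposited table were HDAC7 at 1.02, CARM1 at 0.976, PRMT2 at 0.695 and PRMT3 at −1.023. The correlation of change with transcript length, −0.3148 in NCIH1563, also stood apart from the other lines.

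The differences of NCIH1563 from the mean of the other 9 lines were tested by limma, and the 12 furthest above and 12 furthest below are given here as log2 differences. Of these 24 genes, 8 were in the top 75% of compared genes by level in NCIH1563. Above were EEPD1 (3.432), VDR (3.247), PHLDA2 (2.866), STC2 (2.785), FOSL1 (2.646), ETV4 (2.617), HDAC5 (2.569), ASPHD1 (2.544), ZNF268 (2.515), HAPLN3 (2.381), MAFF (2.379) and DGCR11 (2.373). Below were GTF2IRD2 (−6.844), UPK3BL1 (−6.09), SNORA10 (−5.758), HDAC4 (−3.983), AGAP6 (−3.252), GTF2IRD2B (−3.249), CUTALP (−3.159), TIAM2 (−3.156), EFCAB2 (−2.748), HERC1 (−2.712), HERC2P3 (−2.637) and NUDT3 (−2.534). None of the 24 passed once fold changes were divided by each line's SD.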

How the results depend on the processing

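Within NCIH1563, the counts of 3105 genes higher and 3298 lower stayed within 1.5 times under a recomputed adjustment, an adjusted p of at most 0.01, the top 75% of genes by level, centring and removal of the length and GC trend, and fell to 939 and 1491 with a change of at least 2-fold. Against the other lines, limma's 1272 above and 1205 below ran from 1031 to 1413 above and from 1040 to 1357 below when each other line was left out. They became 307 and 698 against the other adenocarcinoma lines alone and 0 and 0 when scaled by each line's SD, and 603 below with the trend removed, when 962 lay above. The other alternatives kept both counts within 1.5 times. ETV4 lost its call in limma without SKMES1, without SW900, against the squamous lines alone and with the trend removed (adjusted p 0.0513 to 0.0759), DGCR11 with robust and trended moderation (limma adjusted p = 0.1503) and SNORA10 in the z test (adjusted p = 0.222). Among values that changed sign were DGCR11 against the other lines (−0.13 when scaled) and the medians of homologous recombination genes (0.067 with the trend removed), of 3 alkaline phosphatases (−0.101 as a mean, −0.396 in the top 75%) and of neuronal genes (−0.102 with the trend removed). Medians within 0.2 of 0 also changed sign under an alternative: as a mean, mucins (−0.732), paraspeckle RNAs (−0.341), fatty acid synthesis (−0.171), gasdermins (−0.149), HSF1 chaperones (−0.079) and mitosis (−0.047); with the trend removed, gasdermins (−0.473), fatty acid synthesis (−0.106), HSF1 chaperones (−0.04), nucleic acid sensing (0.083) and other arginine methylation genes (0.058); in the top 75%, nucleic acid sensing (0.132), kinin genes (0.127), other arginine methylation genes (0.028) and matrix genes (0.012); and when centred, nucleic acid sensing (0.006) and matrix genes (0.003). The cause was not tested. No paired analysis was possible because the authors' deposited table gives 1 fold change per gene and line and no value per library, and for the same reason no library could be left out. Depth limits low genes: SNORA10 has an SE of 3.18 in NCIH1563, against a median SE of 0.216 over the listed genes of the authors' deposited table.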
